A study of Mus musculus with 217 samples.

Results

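The comparison set the endothelial translatome of the brain against that of the heart in mice at 0 hr, as a direct pair. Its members were the libraries labelled brain 0 hr and heart 0 hr, with the sequencing runs of a library summed and libraries with under 3% of reads on genes left out. This left 5 brain and 5 heart libraries (28 runs) of the 12 libraries at 0 hr and of the 98 libraries in the series. All mice were adult RiboTagEC animals (Cdh5CreERT2/+; Rpl22HA/+) on the C57BL/6J background, which received 5 mg tamoxifen by gavage on 4 occasions from 4 to 6 weeks of age. Cdh5 is the gene of VE-cadherin, so the recombinase that switches on the HA-tagged ribosomal protein Rpl22 is driven by an endothelial promoter, and mRNA on tagged ribosomes was recovered from whole-organ lysate by anti-HA immunoprecipitation. The 0 hr animals are the labelled controls, which per the study's methods received PBS and no LPS. Both tissues share the strain, both alleles, the tamoxifen and the PBS, and differ in the organ alone as far as the labels say. The labels give a replicate number but do not say that each library is a separate mouse, so p-values measure the spread between these libraries.

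Brain capillaries form the blood-brain barrier, in which endothelial cells are sealed by tight junctions, carry out little transcytosis and rely on transporters to move glucose, amino acids, lactate, hormones and lipids. Wnt/beta-catenin signalling is known to induce and maintain this state. Capillaries of the heart are continuous as well, but lie against muscle that burns fatty acids, and their endothelium is known for lipid hydrolysis at the cell surface, fatty acid uptake and fatty acid-binding proteins.

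Counts on genes ran from 8757674 to 25410277 per brain library and from 9792631 to 26666744 per heart library, so that 1 sampled read is worth more in replicates 1 and 2 of both tissues than in replicates 3 to 5, which had 4 runs each and carry another naming pattern in their run names. These 2 sets of libraries are called series 1 (replicates 1 and 2) and series 2 (replicates 3 to 5), each holding both tissues, and the test includes the series as a term. Reads on genes made up 57.4% to 68.7% of the reads in brain and 60.5% to 65.7% in heart. Log2 levels of all tested genes correlated across genes with Pearson's r of 0.904 to 0.984 among brain libraries, 0.983 to 0.989 among heart libraries and 0.544 to 0.686 between the tissues, as a description in which genes are not independent. The tagged gene itself, Rpl22, was present in every library, at 6.59, 6.29, 6.69, 6.34 and 6.05 log2 CPM (CPM, the count scaled to a common library size) in brain replicates 1 to 5 and 6.91, 6.72, 6.88, 6.81 and 7.00 in heart. Its log2 fold change, brain minus heart, was -0.46 ± 0.14 (SE), adjusted p = 0.0114, and it turned to 1.79 under the endothelial scaling described next.

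The endothelial marker list and the markers of other cells both differed between the tissues. Summed over 25 pan-endothelial genes, the heart libraries held 23150, 23860, 25510, 25060 and 23680 CPM and the brain libraries 6108, 9735, 4600, 5644 and 6174 CPM, with no overlap. In bulk samples, fewer endothelial cells and less RNA per cell cannot be told apart. The brain libraries also held 25 of 25 neuron markers at a higher level than heart, 15 of 15 oligodendrocyte markers, 13 of 15 astrocyte markers and 10 of 14 tested markers of leptomeningeal and vascular fibroblasts. Of all tested genes, 36.7% were higher in brain and 33.6% in heart. Neuron markers summed to 3378, 5193, 13040, 13120 and 11770 CPM in brain replicates 1 to 5 and to between 128 and 206 CPM in heart. Markers of leptomeningeal and vascular fibroblasts, led by Ptgds, the prostaglandin D2 synthase of the meninges, summed to 89050, 48080, 37100, 47140 and 22180 CPM in brain and to between 613 and 1240 CPM in heart. In the heart libraries, 24 of 25 cardiomyocyte markers were higher, with a sum of 9067, 11970, 7803, 7547 and 14440 CPM against 375 to 834 CPM in brain. Of the defining markers, 2 of 25 neuron and 4 of 15 oligodendrocyte genes had no read in any heart library, and 1 of 25 cardiomyocyte genes had none in any brain library. The part of these other cells in the results that follow was not tested.

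**Figure D1:**
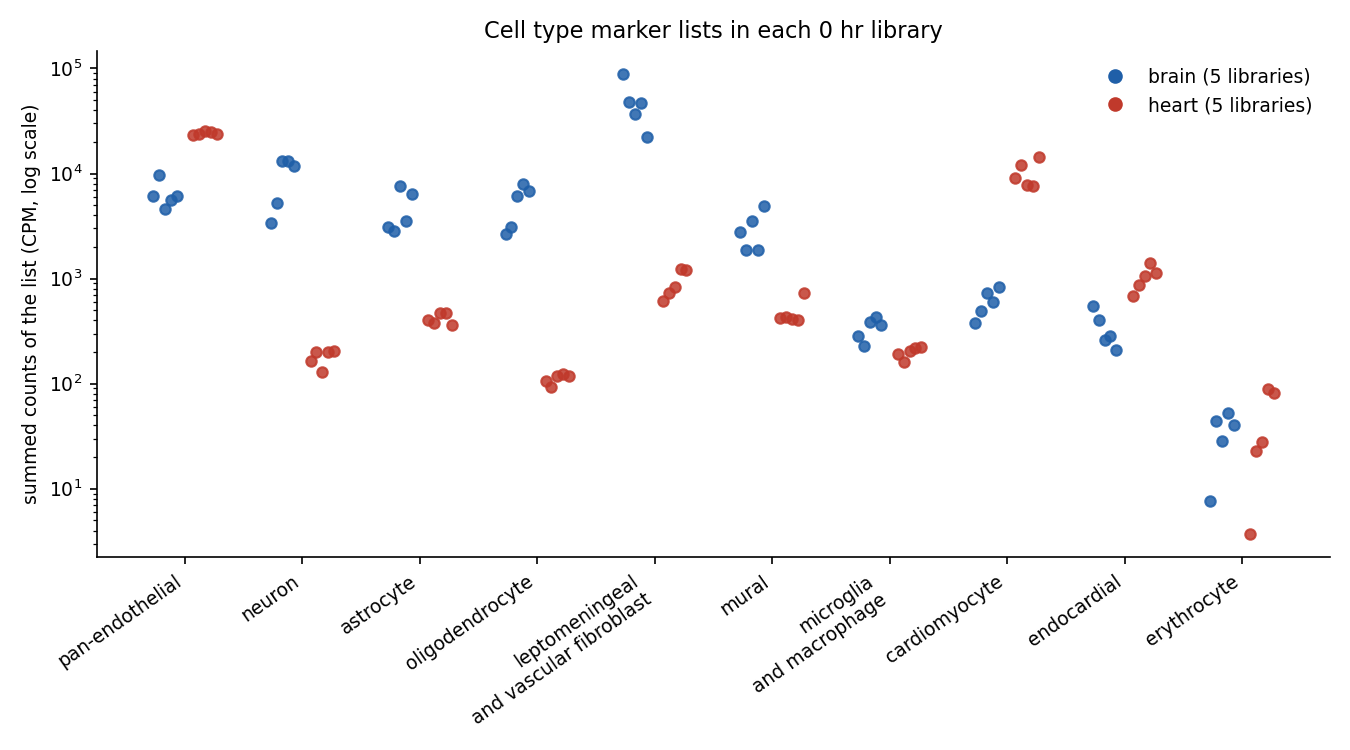
Summed counts of marker lists (vertical axis, CPM on a log scale) in each 0 hr library, with 1 dot for each of 5 brain (blue) and 5 heart (red) libraries, replicates 1 to 5 from left to right. The 5 heart libraries sit between 23150 and 25510 CPM for pan-endothelial genes, above the brain libraries at 4600 to 9735 CPM, while neuron, astrocyte, oligodendrocyte and fibroblast lists are higher in every brain library and the cardiomyocyte list in every heart library.

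Across the transcriptome the endothelial translatomes of brain and heart differed for most genes. Of 16493 genes tested, 6046 (36.7%) were higher in brain and 5539 (33.6%) were higher in heart at an adjusted p under 0.05 in edgeR's quasi-likelihood test, 70.2% in all, and 4908 passed in neither direction. Every brain library lay above every heart library for 4931 genes (29.9%), and the reverse held for 4251 genes (25.8%). Within series 1 alone 4778 genes were higher in brain and 3828 in heart, and within series 2 alone 6805 and 5416. Of the called genes named here, Cdh2, Flt1 and Rpl22 were not called within series 1 and Procr was not called within series 2. The median log2 fold change over all genes tested was 0.03. These values rest on TMM scaling, which sets the bulk of genes equal between the tissues. When each library was scaled on the 25 pan-endothelial genes instead, every log2 fold change rose by a median of 2.23, and 14564 genes (88.3%) were higher in brain and 648 (3.93%) in heart. These 88.3% and 3.93% are the shares to set beside list counts under this scaling. Cdh5, Pecam1, Kdr, Flt1, Tek and Vwf are among the 25 genes, so their values under it are deviations from a mean that includes them. All 6046 genes called higher in brain kept that call under the endothelial scaling, which shifts values toward brain and could hardly remove such a call. That outcome is therefore no check on the brain direction. Of the 5539 genes called higher in heart, 648 kept it and 3667 were called higher in brain. Genes with a log2 fold change between 0 and about -2.2 are thus higher in heart per sequenced RNA but not per endothelial marker RNA, and the value under the endothelial scaling is given wherever it ends or turns the call of a named gene. The 17 genes named here as not called under TMM were all called higher in brain under the endothelial scaling, with log2 fold changes from 1.70 (Tjp1) to 3.22 (Marveld2).

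**Figure D2:**
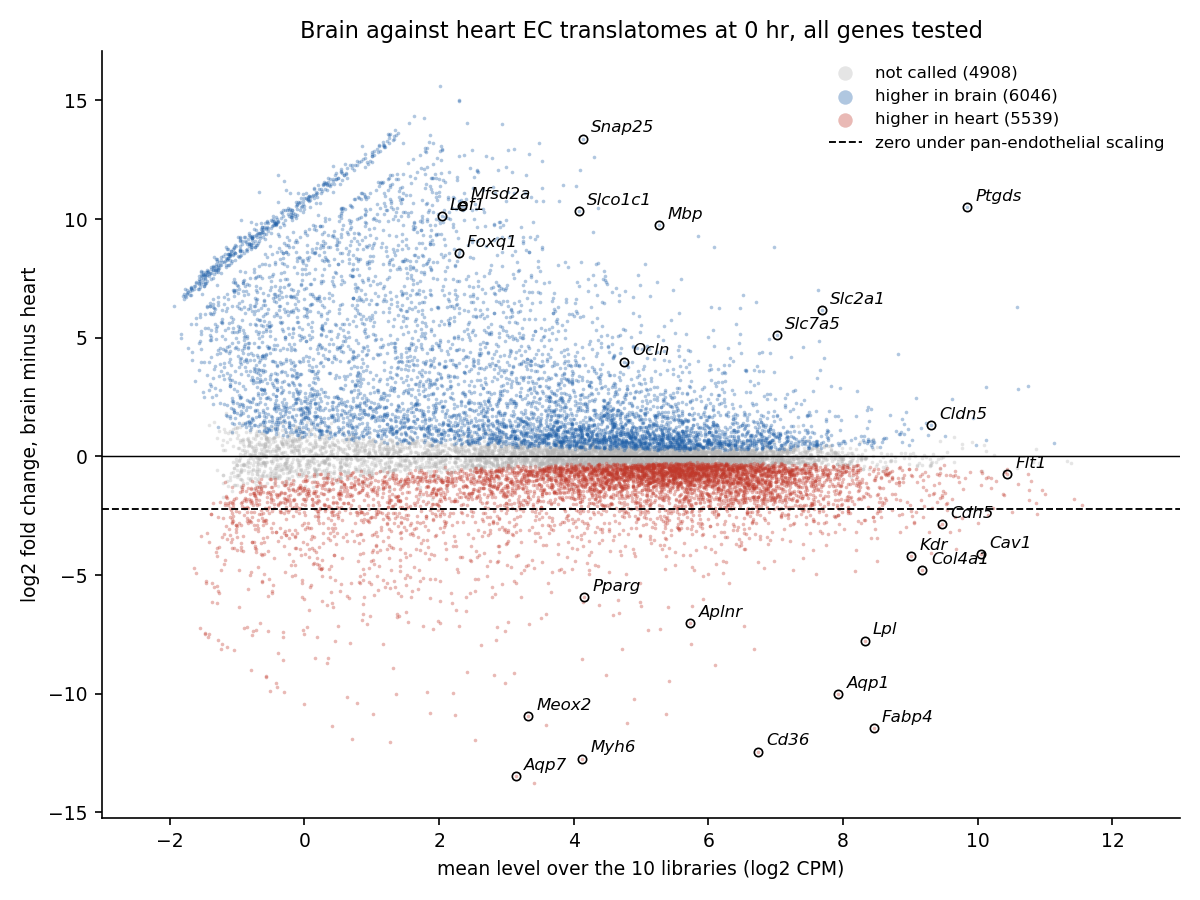
Log2 fold change, brain minus heart (vertical axis), against the mean level over the 10 libraries (horizontal axis, log2 CPM) for the 16493 genes tested, with genes called higher in brain in blue, higher in heart in red and uncalled genes in grey. Cd36, Fabp4, Aqp7 and Meox2 lie more than 10 log2 units below the zero line and stay below the dashed line at -2.23 that marks zero under pan-endothelial scaling, and Flt1 lies between the lines.

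Transporters of the blood-brain barrier were largely higher in brain. Of 27 tested members, 23 were higher in brain, 0 in heart and 4 were not called, against 36.7% and 33.6% of all genes in these directions (88.3% and 3.93% under the endothelial scaling, where 27 and 0 members were called). The median log2 fold change of the list was 2.72. Slc2a1, the glucose transporter GLUT1 (chr4:119108711-119137983, mm10), stood at 11.40, 11.22, 10.33, 10.68 and 10.19 log2 CPM in brain replicates 1 to 5 and at 5.08, 4.42, 4.81, 4.39 and 4.31 in heart. The lowest brain library was over 5 log2 units above the highest heart library, a 71-fold difference of means (log2 fold change 6.15 ± 0.26 (SE), adjusted p = 5.57e-10). Slc7a5, the large neutral amino acid transporter that also carries L-DOPA, stood at 9.97, 9.84, 9.24, 9.48 and 9.38 in brain and 4.91, 4.07, 4.12, 4.29 and 4.83 in heart (log2 fold change 5.10 ± 0.24 (SE), adjusted p = 1.29e-09). Slco1c1, which carries thyroid hormone, stood at 9.29, 9.73, 8.54, 8.91 and 9.12 in brain against -0.65, -1.30, -0.65, -1.33 and -0.94 in heart, where no library held more than 12 reads. The organic anion transporters Slco1a4 and Slc22a8 had log2 fold changes of 6.30 ± 0.45 and 10.75 ± 0.44 (SE). The monocarboxylate transporter Slc16a1, which moves lactate and ketone bodies, was 6.57-fold higher in brain (log2 fold change 2.72 ± 0.19 (SE), adjusted p = 5.71e-08). In all of these the groups did not overlap.

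Mfsd2a, the carrier of docosahexaenoic acid that is also known to hold back transcytosis, was close to absent from heart. It was read 1040, 1889, 2723, 3622 and 2978 times in brain replicates 1 to 5 and 1, 2, 2, 1 and 1 times in heart, a ratio of CPM of 1670-fold (95% interval 810 to 4150), counting error only. Among the efflux pumps the gaps were narrower and ran in both directions. Abcb1a, the main P-glycoprotein gene of rodent brain capillaries, stood at 8.70, 8.85, 7.85, 8.44 and 8.50 log2 CPM in brain and 8.03, 7.50, 7.86, 7.84 and 7.60 in heart, with 1 brain library inside the heart range (log2 fold change 0.71 ± 0.18 (SE), adjusted p = 0.00347). Its paralog Abcb1b, chosen after its values were seen, went the other way at 1.03 ± 0.25 in brain and 4.73 ± 0.32 in heart (log2 CPM, SD, n = 5; log2 fold change -3.79 ± 0.19 (SE), adjusted p = 3.28e-09), and stayed higher in heart under the endothelial scaling at -1.53. Reads on sequence shared by these close paralogs could be assigned to either. Abcg2, the breast cancer resistance protein pump, stood at 8.74, 8.69, 8.04, 8.23 and 7.97 in brain and 8.28, 8.02, 8.60, 8.44 and 8.39 in heart, overlapping groups with a log2 fold change of -0.01 ± 0.19 (SE), adjusted p = 0.953, although the endothelial scaling placed it 2.21 log2 units higher in brain. Over the whole ABC family 17 of 38 tested members were higher in brain and 10 in heart (44.7% and 26.3%, against 36.7% and 33.6% of all genes). Under the endothelial scaling 35 and 2 members were called, against 88.3% and 3.93% of all genes. The lipid pump Abca2 was higher in brain (2.52 ± 0.16). The cholesterol exporters Abca1 (-0.98 ± 0.19) and Abcg1 (-1.16 ± 0.13) were called higher in heart but turned to 1.27 and 1.05 under the endothelial scaling.

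Of all solute carriers, 156 of 278 tested genes were higher in brain (56.1%, against 36.7% of all genes) and 53 in heart (19.1%, against 33.6%). Under the endothelial scaling 256 and 8 were called, against 88.3% and 3.93% of all genes. Among the largest brain differences were Slc13a3 and Slc13a4, carriers of dicarboxylates and of sulfate, which exceeded heart by 10.95 and 11.08 log2 units. Both were highest in brain replicate 1 and lowest in brain replicate 5, as was the fibroblast marker sum, at 9.53, 8.72, 8.16, 8.98 and 7.49 and 9.24, 8.73, 7.57, 8.69 and 7.00 log2 CPM, and the part of those cells was not tested. In heart the leading carriers at 3 log2 CPM or more were Slc43a3, a purine nucleobase transporter, with a log2 fold change of -6.29 ± 0.23 (SE), adjusted p = 1.76e-10, and Slc26a10 at -3.89 ± 0.33. Both kept the call under the endothelial scaling, whereas Slc10a7 at -2.18 ± 0.22 turned to an uncalled 0.04.

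Promoter windows of the barrier genes were searched for the letters that TCF and LEF factors, the nuclear partners of beta-catenin, are known to bind. RefSeq windows of the 250 bases before the transcription start (GRCm38.p6, the mm10 build) were at hand for 20 of the 27 tested barrier transporters. CTTTGAA or CTTTGAT stood on either strand in 6 of these 20 genes (30%), against 6.48% of the 11659 tested genes with a window, 6.62% of those higher in brain and 6.63% of those higher in heart. The 6 genes, named after their values were seen, were all higher in brain, by 7.02 for the thiamine transporter Slc19a3, 3.84 and 1.78 for the metal ion transporters Slc39a8 and Slc39a10, 1.52 for Slc3a2, the heavy chain partner of Slc7a5, 1.03 for the cationic amino acid transporter Slc7a1 and 0.71 for Abcb1a (log2 fold change). As 23 of the 27 list members were higher in brain and 0 in heart, their direction says nothing about the letters. The matches are printed with the bases around them, 1 for each gene, 5′ to 3′ on the gene's strand with the motif or its reverse complement in capitals, to show how far the flanks differ. A further match in the flank of Slc7a1 is left in lower case, and the RefSeq start of Abcb1a lies upstream of the gene's span in GENCODE M21 (chr5:8660077-8748575). A match is a run of letters and not evidence of binding.
Slc19a3 (chr1:83038510-83038546, minus strand): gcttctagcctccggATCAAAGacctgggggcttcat
Slc39a8 (chr3:135825030-135825066, plus strand): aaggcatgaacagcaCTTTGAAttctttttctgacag
Slc39a10 (chr1:46925932-46925968, minus strand): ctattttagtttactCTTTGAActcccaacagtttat
Slc3a2 (chr19:8714065-8714101, minus strand): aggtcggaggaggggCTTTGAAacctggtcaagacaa
Slc7a1 (chr5:148392940-148392976, minus strand): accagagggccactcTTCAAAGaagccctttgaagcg
Abcb1a (chr5:8566923-8566959, plus strand): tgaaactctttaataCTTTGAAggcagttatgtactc

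Genes of the Wnt/beta-catenin pathway also had a brain majority, with 20 of 27 tested members higher in brain, 4 higher in heart and 3 not called (36.7% and 33.6% of all genes were higher in brain and in heart), at a median log2 fold change of 3.83. Under the endothelial scaling 24 were higher in brain and 1 in heart, a brain share close to that of all genes (88.3%, and 3.93% in heart). The nuclear factor Lef1 (chr3:131110471-131224356) stood at 7.24, 7.79, 5.90, 6.37 and 5.97 log2 CPM in brain and was read 1, 0, 0, 2 and 4 times in heart replicates 1 to 5. Tcf7, its relative, had a log2 fold change of 5.06 ± 0.32 (SE), adjusted p = 2.65e-08. The pathway's feedback genes followed the same direction. Axin2, a scaffold of the beta-catenin destruction complex and a common readout of the pathway, stood at 5.45, 5.94, 5.00, 4.86 and 5.00 in brain and 1.22, 1.76, 1.73, 1.87 and 1.67 in heart (12.1-fold, log2 fold change 3.59 ± 0.22 (SE), adjusted p = 1.69e-08). The Wnt inhibitor Apcdd1 and the receptor Tnfrsf19 had log2 fold changes of 5.11 ± 0.47 and 7.33 ± 0.36 (SE), again without overlap. The ligands Wnt7a and Wnt7b, chosen after their values were seen and known from neurons and glia, were read 0 to 3 times and 0 to 1 time in each heart library. In CPM they were 174-fold (95% interval 94.2 to 363) and 878-fold (95% interval 243 to 7260) higher in brain, where neuron and glial markers were high as well. Norrin (Ndp), the other ligand of the barrier pathway, had a log2 fold change of 4.63 ± 0.57. The receptor genes of that ligand went the other way. Fzd4, the Norrin receptor, stood at 7.65, 7.11, 6.26, 6.36 and 6.15 in brain and 9.47, 8.78, 9.32, 9.32 and 8.78 in heart (log2 fold change -2.45 ± 0.26 (SE), adjusted p = 2.92e-06), its co-receptor Lrp5 at -2.08 ± 0.21 and its partner Tspan12 at -2.73 ± 0.20, while Lrp6 was not called (-0.24 ± 0.14). Under the endothelial scaling Tspan12 was still higher in heart (-0.52), Fzd4 was no longer called (-0.20) and Lrp5 turned to an uncalled 0.13. Of 16 tested Wnt genes with a promoter window, 2 (12.5%) held the TCF/LEF letters.

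Transcription factors included several that were close to absent from the other tissue. Of 43 tested endothelial transcription factors, 9 were higher in brain and 28 in heart, against 36.7% and 33.6% of all genes, and under the endothelial scaling 28 and 11, against 88.3% and 3.93%. The brain factors included Foxf2, Foxq1 and Lef1, all known from brain endothelium and its mural partners. Foxf2 was read 1009, 1977, 1965, 3070 and 2003 times in brain and 0, 2, 2, 1 and 2 times in heart, a ratio of 1370-fold (95% interval 663 to 3400). Foxq1 stood at 6.39, 7.14, 6.06, 6.73 and 6.14 log2 CPM in brain and -3.21, -1.70, -2.06, -1.87 and -0.72 in heart (log2 fold change 8.57 ± 0.40 (SE), adjusted p = 1.29e-09), with exons that overlap a gene on the other strand. The heart factors included Meox2 and Tcf15, which act as a pair on fatty acid uptake genes in heart endothelium, the lipid sensor Pparg and the GATA factor Gata4. Meox2 (chr12:37108540-37179534) stood at 8.08, 8.65, 8.57, 9.02 and 8.51 log2 CPM in heart and -2.19, -1.76, -0.96, -3.21 and -1.54 in brain, where no library held more than 10 reads (log2 fold change -10.93 ± 0.43 (SE), adjusted p = 3.00e-10). Tcf15 stood at 6.83, 7.74, 7.93, 7.38 and 8.20 in heart and 1.92, 2.51, 2.33, 2.42 and 2.56 in brain (40.5-fold), and Pparg had a log2 fold change of -5.92 ± 0.28 (SE), adjusted p = 1.58e-09. Gata4 had no read in any brain library and 117 to 556 in a heart library, at least 50.0-fold higher in heart against a floor of 3 counts per library. Hand2, another cardiac factor chosen after its values were seen, was at least 73.7-fold higher by the same floor. Gata4 and Hand2 had heart means of 16.7 and 24.6 CPM, and both also belong to the endocardial list described below. The part of endocardium and heart muscle in their reads was not tested. The heart factors named here all kept the call under the endothelial scaling.

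Hox genes mark position along the body axis and are silent in forebrain and midbrain. They were higher in heart in 13 of 13 tested members, at a median log2 fold change of -3.66, and no heart library overlapped a brain library. The family has 39 genes, and it summed to at most 12.15 CPM in a brain library and at least 43.3 CPM in a heart library. Its members could thus pass the filter through heart alone, so the 13 of 13 cannot be set against the 33.6% of all genes. The fold changes describe the tested members only. Under the endothelial scaling 7 of the 13 were still higher in heart and 6 were not called. The range ran from -2.13 ± 0.44 for Hoxb3, which turned to an uncalled 0.17, to -5.37 ± 0.44 for Hoxd8 (SE), both named after their values were seen.

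Junction genes split by class. The tight junction list held 8 members higher in brain, 8 higher in heart and 3 not called of 19 tested, against 36.7% and 33.6% of all genes, at a median log2 fold change of -0.18. Under the endothelial scaling the even split became 15 higher in brain and 0 in heart, a brain share no larger than that of all genes (88.3%, and 3.93% in heart). Cldn5, the main claudin of endothelium, was abundant in both tissues, at 9.89, 10.67, 9.61, 9.98 and 9.63 log2 CPM in brain and 8.50, 8.68, 8.37, 9.01 and 8.73 in heart, a 2.48-fold difference without overlap (log2 fold change 1.31 ± 0.22 (SE), adjusted p = 1.88e-04). Occludin (Ocln) stood at 7.39, 7.75, 6.08, 6.45 and 6.15 in brain and 2.22, 2.37, 2.88, 3.09 and 3.03 in heart (15.9-fold, 3.99 ± 0.34 (SE), adjusted p = 4.37e-07). Lsr, the angulin of tricellular junctions, was 12.8-fold higher in brain (log2 fold change 3.68 ± 0.21 (SE), adjusted p = 1.06e-08), whereas its partner tricellulin (Marveld2) was not called at 1.03 ± 0.49 but was called higher in brain with DESeq2 and with limma-voom. Cldn12 was higher in brain by 1.13 ± 0.13. Cldn15, chosen after its values were seen, was the 1 claudin of 8 tested that was higher in heart, at 5.43 ± 0.23 against -1.61 ± 0.67 log2 CPM (SD, n = 5; log2 fold change -7.28 ± 0.27 (SE), adjusted p = 1.85e-10), under both scalings. The junctional adhesion molecules Jam2 (-2.24 ± 0.26), Jam3 (-2.31 ± 0.15) and F11r (-2.51 ± 0.23) were higher in heart under TMM, with no overlap, and lost the call under the endothelial scaling at -0.03, -0.07 and -0.33. The scaffold Tjp1 (ZO-1) was not called (-0.53 ± 0.27 (SE), adjusted p = 0.10).

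Adherens junction genes were higher in heart in 13 of 14 tested members and in brain in 1, against 33.6% and 36.7% of all genes. Under the endothelial scaling 4 were higher in heart and 6 in brain, against 3.93% and 88.3% of all genes. VE-cadherin (Cdh5), whose promoter drives the recombinase, stood at 8.47, 8.24, 7.54, 7.92 and 7.99 log2 CPM in brain and 10.77, 10.59, 10.99, 11.16 and 10.95 in heart (log2 fold change -2.85 ± 0.22 (SE), adjusted p = 1.47e-07, and -0.63 under the endothelial scaling). Pecam1 (-3.09 ± 0.25) and T-cadherin (Cdh13, -3.67 ± 0.26) kept their calls as well. Cdh5 and Pecam1 belong to the genes that set that scaling, and Cdh13 does not. N-cadherin (Cdh2), which joins endothelium to pericytes and is also neuronal, was the exception at 0.66 ± 0.21 (SE), adjusted p = 0.0152. Its groups overlapped, and the call was lost without brain replicate 2, at an adjusted p of 0.0538.

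Fatty acid handling included heart genes with differences of more than 10 log2 units. Of 27 tested genes for fatty acid uptake and handling, 18 were higher in heart and 6 in brain, against 33.6% and 36.7% of all genes. Under the endothelial scaling the counts were 12 and 12, against 3.93% and 88.3%. Cd36, the fatty acid translocase of heart capillaries (chr5:17781690-17888801), stood at 12.92, 12.65, 13.00, 13.39 and 12.64 log2 CPM in heart replicates 1 to 5 and 0.53, -0.23, 0.37, 0.87 and 1.16 in brain. It was read up to 260114 times in a heart library and at most 54 times in a brain library, a 5530-fold difference (log2 fold change -12.43 ± 0.39 (SE), adjusted p = 6.16e-11). Gpihbp1, which anchors lipoprotein lipase on the capillary wall, stood at 10.75, 10.80, 10.87, 10.57 and 10.56 in heart and 0.29, 0.18, 0.01, 0.30 and -0.69 in brain (log2 fold change -10.83 ± 0.28 (SE), adjusted p = 2.94e-11). Lipoprotein lipase itself (Lpl), known to be made by cardiomyocytes and carried to the endothelium, stood at 12.15, 11.68, 13.02, 12.27 and 11.74 and 4.20, 3.65, 4.96, 4.93 and 4.59 (216-fold, log2 fold change -7.76 ± 0.35 (SE), adjusted p = 1.03e-09), beside cardiomyocyte markers at 7547 to 14440 CPM in heart. Aqp7, a channel for water and glycerol, was read 4601, 5154, 15454, 14616 and 9977 times in heart and 0, 1, 2, 0 and 1 times in brain, a ratio of 13100-fold (95% interval 5100 to 47900). Aqp1, the water channel of continuous endothelium outside the brain, stood at 13.01, 12.72, 13.37, 12.90 and 12.59 and 2.79, 2.67, 3.40, 3.22 and 2.58 log2 CPM (log2 fold change -10.00 ± 0.35 (SE), adjusted p = 1.21e-10). All of these kept their direction and call under the endothelial scaling.

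The brain side of the list held other members. Besides Mfsd2a they included the acyl-CoA synthetase Acsl3, at 6.58, 6.51, 8.58, 7.29 and 8.21 log2 CPM in brain against 3.73, 3.60, 3.64, 4.05 and 3.60 in heart (log2 fold change 3.79 ± 0.33 (SE), adjusted p = 4.39e-07), and the fatty acid transport protein Slc27a1 (2.93-fold, 1.55 ± 0.18 (SE), adjusted p = 7.93e-06). The lipoprotein receptor Vldlr was not called (-0.28 ± 0.20). Acsl3 was higher in brain replicates 3 to 5 than in replicates 1 and 2, as were the neuron markers.

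The intracellular lipid-binding proteins showed a switch of members. Fabp4, the fatty acid-binding protein of heart capillaries and fat, stood at 14.46, 14.24, 14.29, 14.08 and 14.15 log2 CPM in heart and 2.76, 2.29, 3.12, 3.66 and 1.50 in brain (log2 fold change -11.43 ± 0.55 (SE), adjusted p = 1.73e-09). Fabp5 stood at 9.53, 8.34, 9.02, 8.28 and 8.19 and 3.04, 2.67, 4.63, 4.33 and 4.11 (30.4-fold, -4.93 ± 0.43 (SE), adjusted p = 5.22e-07), and the retinol-binding Rbp7 at 10.02, 10.85, 10.21, 10.78 and 10.52 and 1.83, 2.56, 1.82, 1.73 and 0.64 (log2 fold change -8.78 ± 0.38 (SE), adjusted p = 7.82e-10). Fabp3, the form of heart muscle, was 8.37-fold higher in heart (-3.06 ± 0.27 (SE), adjusted p = 6.25e-07), beside high cardiomyocyte markers. On the other side, the retinoic acid-binding Crabp2 was read at most 4 times in a heart library and stood at 8.26, 7.47, 6.81, 7.07 and 5.97 log2 CPM in brain (log2 fold change 10.45 ± 0.47 (SE), adjusted p = 9.45e-10). Fabp7, known from radial glia and astrocytes, was read 81, 124, 929, 845 and 1158 times in brain and 2, 0, 1, 0 and 1 times in heart, a ratio of 748-fold (95% interval 292 to 2750). All 7 tested members of the family were called, 3 for brain and 4 for heart (36.7% and 33.6% of all genes), with the same direction under the endothelial scaling and without overlap between groups. Crabp2 was highest in brain replicate 1 and lowest in replicate 5, like the fibroblast marker sum, and Fabp7 was higher in replicates 3 to 5, like the neuron and oligodendrocyte sums.

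The promoter windows of the lipid genes were searched for AGGTCA, the letters that nuclear receptors such as Pparg and its partner are known to bind, on either strand. They stood in 5 of 19 list genes with a window (26.3%), against 12.9% of tested genes, 12.8% of genes higher in heart and 13.8% of genes higher in brain. The 5 were Cd36, Aqp7, Pparg and the lipid droplet coat gene Plin2 (-2.19 ± 0.20, and an uncalled 0.05 under the endothelial scaling, chosen after its values were seen), which were higher in heart, and Mfsd2a, which was higher in brain, so that the letters went with both directions. AGGTCA also stood in 4 of 20 barrier transporters with a window (20.0%). The TCF/LEF letters stood in 2 of the 19 lipid genes (10.5%), against 6.48% of tested genes. The windows of the strongest heart pair and of the brain carrier are printed whole (250 bases before the RefSeq start, GRCm38.p6, 5′ to 3′ on the gene's strand, with AGGTCA or its reverse complement in capitals). The RefSeq start of Cd36 lies within the gene's span given above. For Aqp7 the window of the more upstream of its starts is shown.
Cd36 (chr5:17835897-17836146, minus strand): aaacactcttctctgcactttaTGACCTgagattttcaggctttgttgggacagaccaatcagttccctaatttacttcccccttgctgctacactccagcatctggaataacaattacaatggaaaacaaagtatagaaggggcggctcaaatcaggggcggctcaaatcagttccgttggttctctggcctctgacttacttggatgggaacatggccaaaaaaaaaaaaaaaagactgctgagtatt
Aqp7 (chr4:41048137-41048386, minus strand): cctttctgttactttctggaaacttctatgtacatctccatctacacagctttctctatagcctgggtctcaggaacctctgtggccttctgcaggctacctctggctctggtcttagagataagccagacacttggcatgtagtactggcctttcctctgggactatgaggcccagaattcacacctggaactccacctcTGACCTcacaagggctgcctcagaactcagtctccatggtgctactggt
Mfsd2a (chr4:122961189-122961438, minus strand): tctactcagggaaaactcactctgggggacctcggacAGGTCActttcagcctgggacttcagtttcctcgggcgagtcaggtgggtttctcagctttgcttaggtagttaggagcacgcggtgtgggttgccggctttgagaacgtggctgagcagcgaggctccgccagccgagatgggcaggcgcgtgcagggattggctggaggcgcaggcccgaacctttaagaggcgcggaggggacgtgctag

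The enzymes that burn these fatty acids differed less. Of 21 tested genes of mitochondrial beta-oxidation 15 were higher in heart and 1 in brain, at a median log2 fold change of -0.70, against 33.6% and 36.7% of all genes, and under the endothelial scaling 0 and 19, against 3.93% and 88.3%. Etfdh (-2.15 ± 0.22), Acads (-1.98 ± 0.16) and Acadm (-1.70 ± 0.20), an electron transfer enzyme and a pair of acyl-CoA dehydrogenases, led the heart side and turned to 0.07 and 0.28, neither called, and to 0.55, called higher in brain. The exception was Cpt1c, the neuronal carnitine palmitoyltransferase, at 4.60, 4.85, 5.60, 5.14 and 6.00 log2 CPM in brain and 1.67, 1.72, 1.06, 1.12 and 1.79 in heart (log2 fold change 3.86 ± 0.29 (SE), adjusted p = 1.16e-07). Of 26 tested glycolysis genes 13 were higher in brain and 6 in heart, against 36.7% and 33.6% of all genes, and under the endothelial scaling 23 and 2, against 88.3% and 3.93%. The largest differences fell on isozymes known from other cells, namely aldolase C (Aldoc, 11.42 ± 0.35) and enolase 2 (Eno2, 10.75 ± 0.40) of glia and neurons in brain, and the muscle forms Eno3 (-3.85 ± 0.27) and Pgam2 (-3.61 ± 0.44) in heart. Their part in whole-tissue RNA was not tested. Ldhb, which favours lactate use, was 3.16-fold higher in brain (log2 fold change 1.66 ± 0.23 (SE), adjusted p = 3.16e-05). Hexokinase 2 (Hk2), the insulin-regulated form of muscle, was 4.98-fold higher in heart (-2.31 ± 0.17 (SE), adjusted p = 1.10e-07) but not called under the endothelial scaling (-0.10). Hk1 (0.23 ± 0.16) and Gpi1 (0.20 ± 0.11) were not called.

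**Figure D3:**
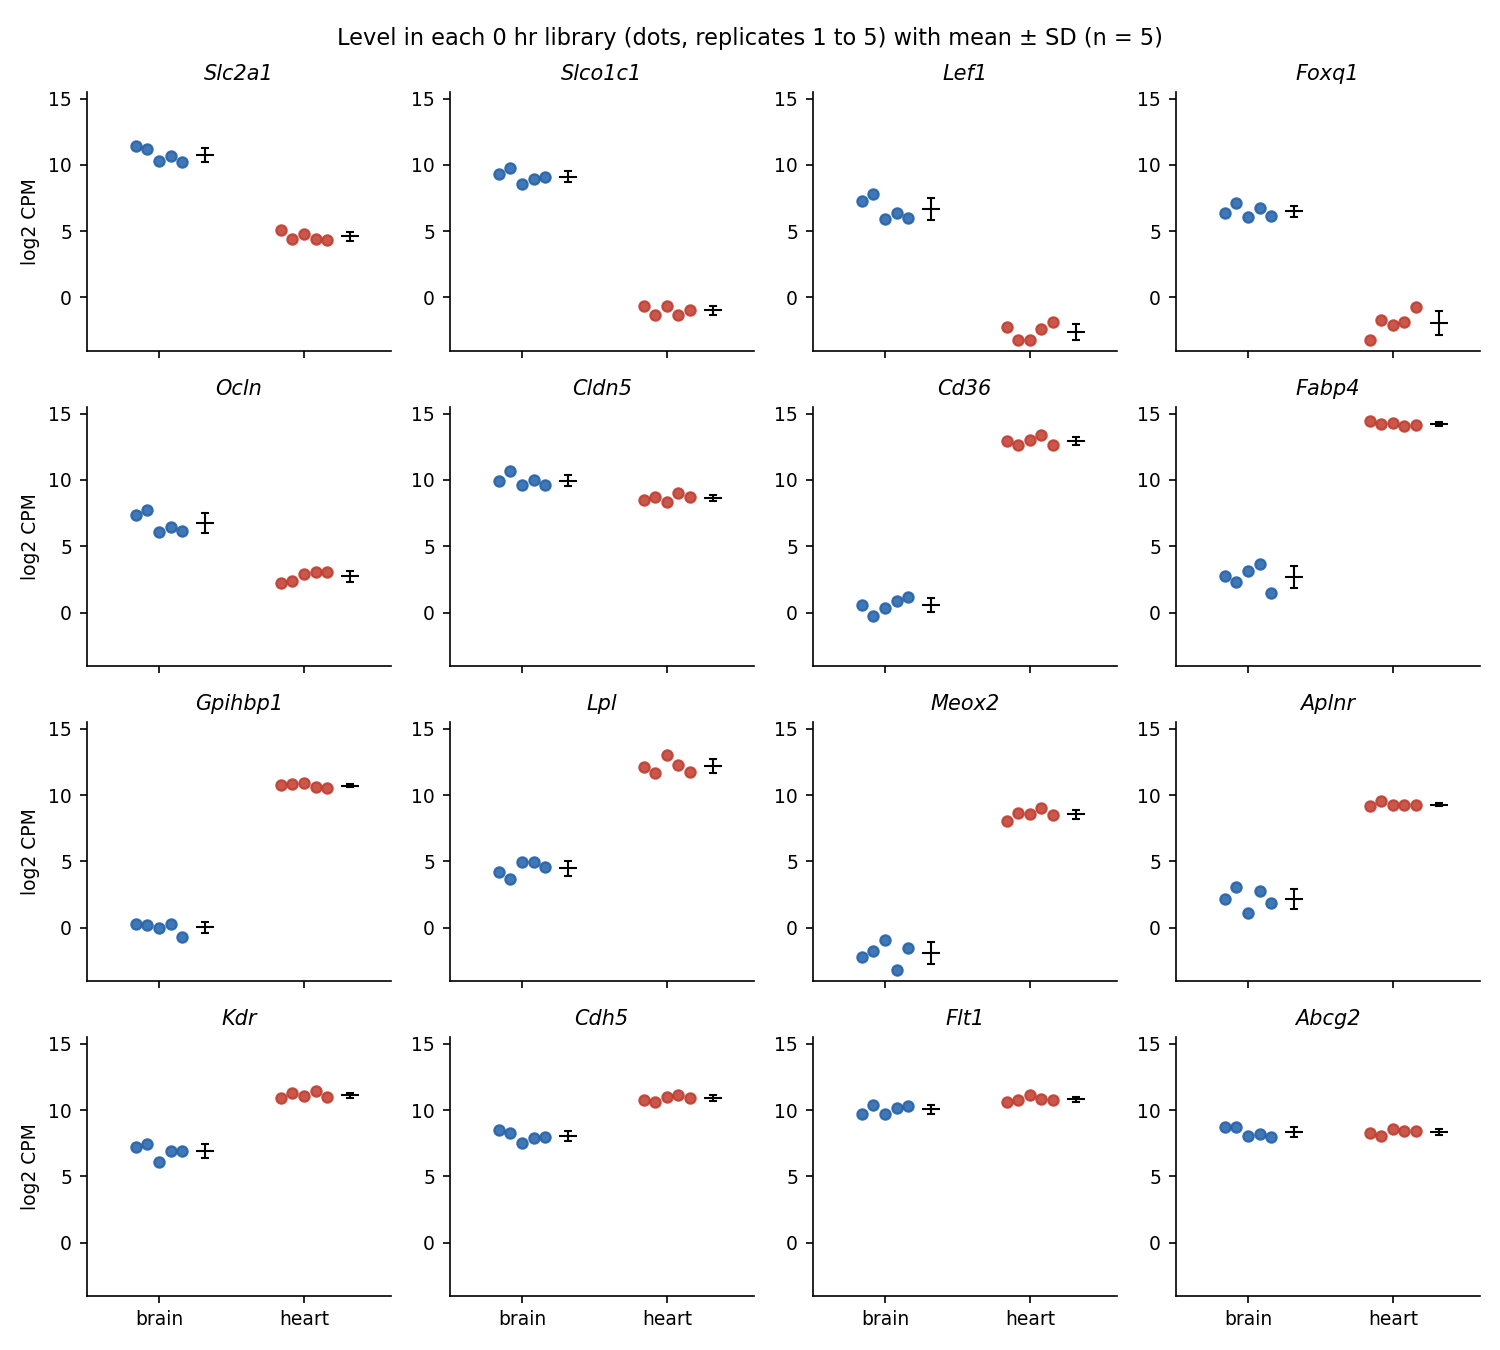
Level of 16 genes in each 0 hr library (vertical axis, log2 CPM), with 1 dot for each of replicates 1 to 5 in brain (blue) and heart (red) and the mean ± SD (n = 5) beside them; the lowest values, near -3, are libraries with no read. Slc2a1, Slco1c1, Lef1, Foxq1 and Ocln are higher in every brain library, Cd36, Fabp4, Gpihbp1, Lpl, Meox2, Aplnr, Kdr and Cdh5 in every heart library, and Abcg2 overlaps.

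Caveolae, the flask-shaped pits that carry cargo across continuous endothelium, followed the heart. Of 16 tested genes of caveolae and transcytosis 12 were higher in heart and 3 in brain, against 33.6% and 36.7% of all genes, and 6 and 7 under the endothelial scaling, against 3.93% and 88.3%. Caveolin 1 (Cav1, chr6:17306335-17341452) stood at 11.91, 11.63, 12.19, 12.56 and 12.17 log2 CPM in heart and 8.88, 9.31, 7.04, 7.50 and 7.30 in brain (17.3-fold, log2 fold change -4.11 ± 0.45 (SE), adjusted p = 3.96e-06). Cavin2 stood at 11.40, 11.36, 11.35, 11.55 and 10.92 and 8.59, 8.43, 6.27, 6.71 and 6.43 (log2 fold change -4.05 ± 0.38 (SE), adjusted p = 9.07e-07), and Ehd2, which stabilises the caveolar neck, at -3.20 ± 0.30 (SE). These 3 kept the call under the endothelial scaling at -1.90, -1.81 and -0.99. Within brain, series 1 was higher for all 3 than series 2. Plvap, which forms the diaphragms of fenestrae and caveolae and is low in mature barrier vessels, was 6.16-fold higher in heart (-2.62 ± 0.31 (SE), adjusted p = 7.47e-06), but not called under the endothelial scaling (-0.37). Of the flotillins, Flot1 was slightly higher in brain (0.47 ± 0.14 (SE), adjusted p = 0.0107) and Flot2 was not called (-0.19 ± 0.12).

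Growth factor receptors were mostly higher in heart, but not in proportion. Of 20 tested genes for VEGF, angiopoietin and apelin signalling 16 were higher in heart and 1 in brain, against 33.6% and 36.7% of all genes, and 8 and 11 under the endothelial scaling, against 3.93% and 88.3%. The apelin receptor Aplnr stood at 9.16, 9.54, 9.22, 9.26 and 9.23 log2 CPM in heart and 2.12, 3.03, 1.10, 2.80 and 1.84 in brain (log2 fold change -7.02 ± 0.35 (SE), adjusted p = 2.72e-09), and its ligand Apln at 9.10, 8.34, 8.25, 8.24 and 8.60 and 3.21, 3.56, 4.82, 4.33 and 4.23 (22-fold, -4.46 ± 0.32 (SE), adjusted p = 7.14e-08). Kdr (VEGFR2), the main signalling receptor for VEGF-A, stood at 10.88, 11.25, 11.04, 11.40 and 10.98 in heart and 7.22, 7.42, 6.06, 6.90 and 6.94 in brain (18.2-fold, -4.19 ± 0.26 (SE), adjusted p = 1.96e-08). Flt1 (VEGFR1), known as a trap for the same ligand, differed by 1.69-fold, at 10.59, 10.79, 11.11, 10.85 and 10.74 and 9.72, 10.35, 9.71, 10.13 and 10.31 (log2 fold change -0.75 ± 0.20 (SE), adjusted p = 0.00444). Kdr, Flt1 and Tek help set the endothelial scaling, so their values on it compare them with their own set's mean. On it Kdr was still higher in heart (-1.99) while Flt1 was higher in brain (1.44). Tek (TIE2) likewise turned from -1.56 ± 0.21 to 0.62. Its ligand Angpt1, known from pericytes and glia, was 2.79-fold higher in brain (1.48 ± 0.22 (SE), adjusted p = 5.62e-05), and Vegfa was not called (-0.17 ± 0.27).

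Of 23 tested Notch and arterial genes 16 were higher in heart and 3 in brain, against 33.6% and 36.7% of all genes (6 and 12 under the endothelial scaling, against 3.93% and 88.3%). The tip cell and arterial ligand Dll4 stood at 8.23, 8.50, 8.65, 8.22 and 8.13 log2 CPM in heart and 4.35, 4.97, 4.16, 4.25 and 5.03 in brain (13.6-fold, log2 fold change -3.77 ± 0.22 (SE), adjusted p = 1.25e-08), Dll1 at -3.36 ± 0.20 and the chemokine receptor Cxcr4 at 5.99, 6.20, 6.49, 6.27 and 5.89 and 0.92, 1.05, 1.80, 1.65 and 1.87 (log2 fold change -4.72 ± 0.19 (SE), adjusted p = 3.53e-10). These 3 kept the call under the endothelial scaling. The arterial connexin Gja4 turned from -1.27 ± 0.21 to 0.97. Heyl, a Notch target known from mural cells, was higher in brain (1.13 ± 0.25 (SE), adjusted p = 0.00157). Among venous and lymphatic genes, 8 of 15 tested were higher in heart and 3 in brain, against 33.6% and 36.7% of all genes (5 and 8 under the endothelial scaling, against 3.93% and 88.3%). Nr2f2, the venous transcription factor, was not called (0.62 ± 0.28) but was called higher in brain with DESeq2 and with limma-voom. Lyve1, of lymphatic endothelium and tissue macrophages, was 29.5-fold higher in heart (-4.88 ± 0.36 (SE), adjusted p = 9.36e-08).

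**Figure D4:**
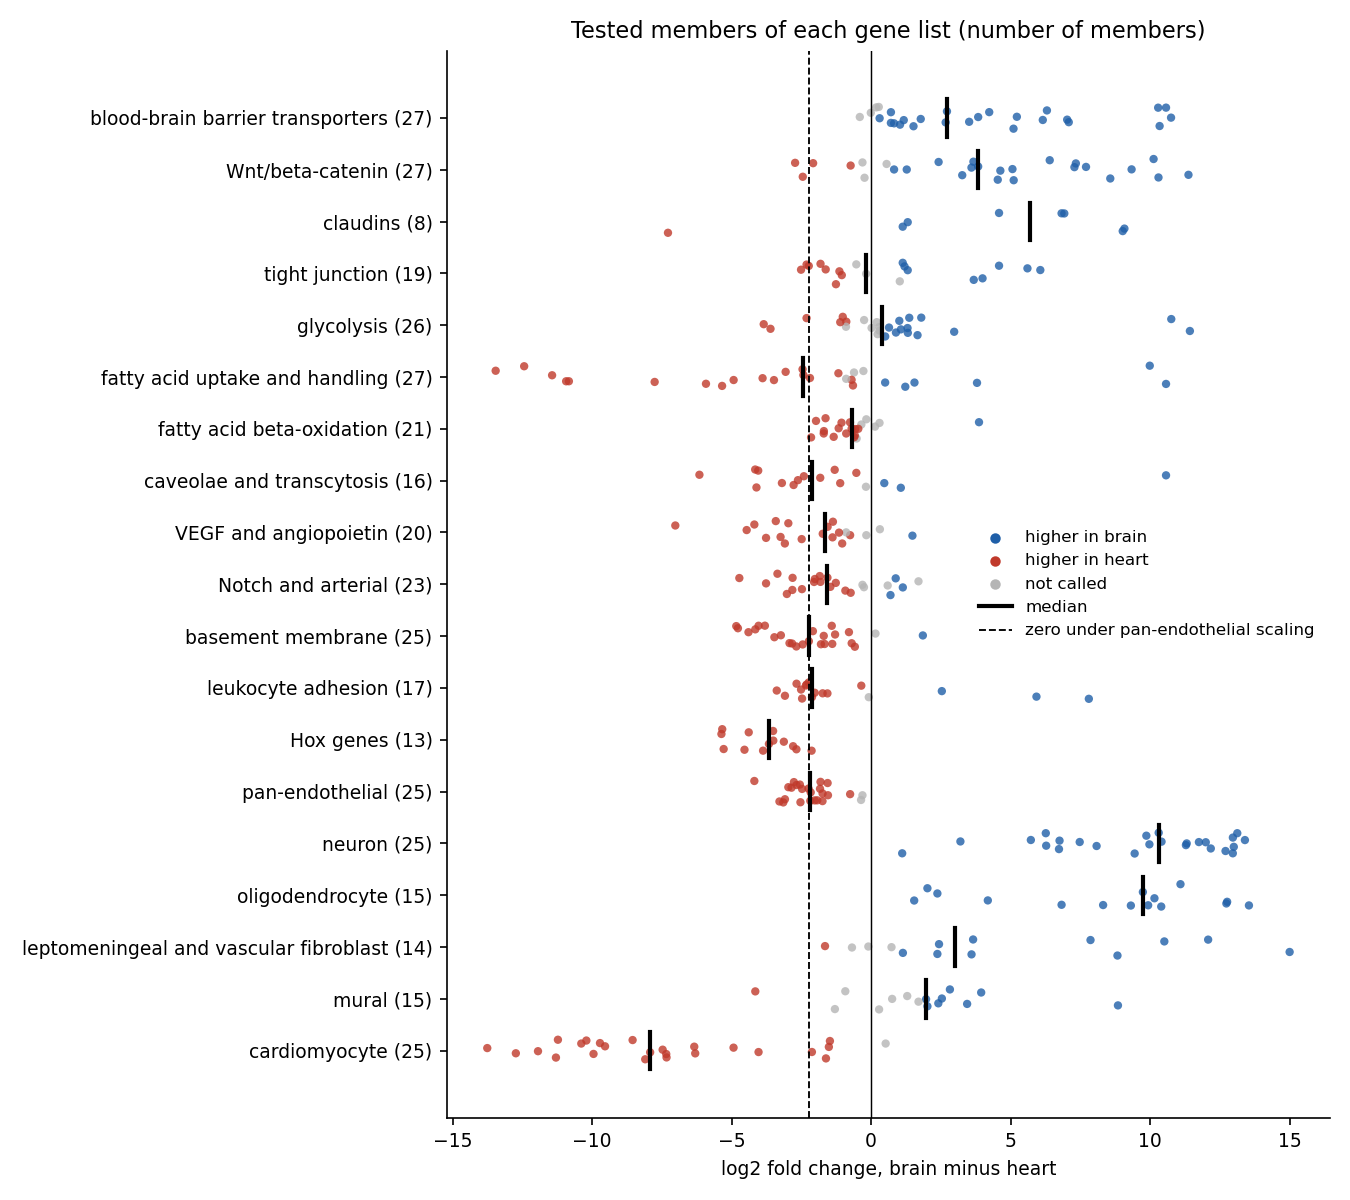
Log2 fold change, brain minus heart (horizontal axis), of every tested member of 19 gene lists (rows, with the number of members), where each dot is a gene, blue if called higher in brain, red if higher in heart and grey if not called, and the bar is the list's median. Most barrier transporters and Wnt genes lie right of zero, the 13 Hox genes lie left of it, and the medians of the pan-endothelial, basement membrane, caveolae and leukocyte adhesion lists lie near the dashed line at -2.23 that marks zero under pan-endothelial scaling.

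Clotting genes were divided as well, with 12 of 18 tested higher in heart and 4 in brain, against 33.6% and 36.7% of all genes (4 and 8 under the endothelial scaling, against 3.93% and 88.3%). Tissue factor (F3), the starter of the extrinsic pathway, which astrocytes are known to make, stood at 8.32, 7.40, 8.12, 8.10 and 7.40 log2 CPM in brain and 1.85, 1.92, 1.86, 1.39 and 2.36 in heart (66-fold, log2 fold change 6.04 ± 0.28 (SE), adjusted p = 1.18e-09). The thrombin receptor F2r stood at 7.71, 7.47, 7.55, 8.23 and 7.63 in heart and 2.90, 3.03, 2.99, 3.08 and 3.02 in brain (27.1-fold, -4.76 ± 0.17 (SE), adjusted p = 1.69e-10). Von Willebrand factor (Vwf) was 4.54-fold higher in heart (-2.18 ± 0.24 (SE), adjusted p = 4.26e-06), a difference that left no call under the endothelial scaling (-0.01), which Vwf helps to set. Thrombomodulin (Thbd) was not called (-0.51 ± 0.29 (SE), adjusted p = 0.135), and its partner, the protein C receptor Procr, was slightly higher in brain (0.70 ± 0.20 (SE), adjusted p = 0.00796).

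Of 24 tested genes for nitric oxide and vascular tone 14 were higher in heart and 4 in brain, against 33.6% and 36.7% of all genes (4 and 14 under the endothelial scaling, against 3.93% and 88.3%). The nucleotide receptor P2ry2 (-4.61 ± 0.30), the adrenomedullin and CGRP receptor Calcrl (-3.40 ± 0.38) and cyclooxygenase 1 (Ptgs1, -3.37 ± 0.19) led in heart and kept the call. Ddah1, which breaks down the endogenous inhibitor of nitric oxide synthase, was 4.21-fold higher in brain (2.07 ± 0.18 (SE), adjusted p = 3.58e-07), and endothelin 1 (Edn1) was not called (-0.13 ± 0.34).

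Genes for leukocyte adhesion were higher in heart in 13 of 17 tested members and in brain in 3, against 33.6% and 36.7% of all genes (3 and 6 under the endothelial scaling, against 3.93% and 88.3%). The brain genes included Alcam, a ligand for T cell CD6 that is also made by neurons and meningeal cells, at 9.58, 9.08, 7.70, 8.31 and 7.22 log2 CPM in brain and 0.09, 0.59, -0.22, 1.01 and 1.10 in heart (log2 fold change 7.80 ± 0.46 (SE), adjusted p = 1.15e-08), and the membrane chemokine Cx3cl1 (5.79-fold, 2.53 ± 0.22 (SE), adjusted p = 4.89e-07). Alcam was highest in brain replicate 1 and lowest in replicate 5. Vcam1 was not called, at 8.00, 7.73, 7.23, 7.70 and 6.59 in brain and 7.41, 7.37, 7.79, 7.76 and 7.55 in heart (log2 fold change -0.09 ± 0.23 (SE), adjusted p = 0.75). Antigen presentation genes were higher in heart in 10 of 15 and in brain in 2, against 33.6% and 36.7% of all genes (2 and 8 under the endothelial scaling, against 3.93% and 88.3%). They were led by the class I heavy chains H2-K1 (-3.16 ± 0.23) and H2-D1 (-2.79 ± 0.23), closely similar genes between which reads may be shared. The class II invariant chain Cd74 was not called (-0.02 ± 0.17).

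Basement membrane genes were higher in heart in 23 of 25 tested members and in brain in 1, against 33.6% and 36.7% of all genes, and under the endothelial scaling in 10 and 9, against 3.93% and 88.3%. Perlecan (Hspg2) stood at 10.59, 10.49, 10.65, 10.72 and 10.62 log2 CPM in heart and 5.01, 5.56, 5.90, 5.63 and 6.58 in brain (28.5-fold, log2 fold change -4.83 ± 0.26 (SE), adjusted p = 4.62e-09). The paired type IV collagen genes Col4a1 and Col4a2, which are transcribed from a shared promoter, had log2 fold changes of -4.77 ± 0.28 and -4.40 ± 0.27 (SE), and all 3 kept the call at -2.63, -2.54 and -2.17. The single brain gene was Col4a5 (3.61-fold, 1.85 ± 0.25 (SE), adjusted p = 2.81e-05), and fibronectin (Fn1) was not called (0.16 ± 0.29). For BMP and TGF-beta signalling, 16 of 31 genes were higher in heart and 8 in brain, and 1 and 25 under the endothelial scaling, against 3.93% and 88.3% of all genes. Ltbp4, which stores latent TGF-beta in the matrix, was 7-fold higher in heart (-2.81 ± 0.20 (SE), adjusted p = 7.29e-08) and was the list's heart gene under both scalings, while Smad5 fell from -2.56 ± 0.27 to an uncalled -0.33. Smad3 (2.33 ± 0.17), Smad9 (1.81 ± 0.24) and the growth factor Gdf10 (4.04 ± 0.24) were higher in brain, and the BMP9 receptor Acvrl1 was not called (-0.39 ± 0.19).

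Whole heart tissue holds endocardium, the lining of the chambers, beside capillaries. Of 13 tested endocardial genes 9 were higher in heart and 1 in brain, against 33.6% and 36.7% of all genes (5 and 7 under the endothelial scaling, against 3.93% and 88.3%). The list summed to 685, 862, 1060, 1394 and 1140 CPM in heart replicates 1 to 5 and 544, 405, 262, 286 and 210 CPM in brain. Npr3, the natriuretic peptide clearance receptor, stood at 7.83, 8.24, 9.06, 9.51 and 8.66 log2 CPM in heart and 6.84, 6.29, 5.24, 5.51 and 4.07 in brain (log2 fold change -3.06 ± 0.51 (SE), adjusted p = 1.58e-04), but was not called under the endothelial scaling (-0.78). Cytl1 kept its call (-3.26 ± 0.42, and -1.10), and the valve factor Nfatc1 turned from -1.70 ± 0.21 to 0.50. Among the genes with the largest heart differences at 5 log2 CPM or more, Btnl9 stood at 10.08, 10.03, 10.13, 10.17 and 10.11 in heart and 0.92, 1.05, 0.54, 1.05 and 0.13 in brain (log2 fold change -9.45 ± 0.26 (SE), adjusted p = 2.94e-11), and Cd300lg, a sialomucin of capillary endothelium, at 10.61, 10.55, 11.00, 10.80 and 10.63 and 3.16, 2.94, 2.66, 2.43 and 1.94 (log2 fold change -8.11 ± 0.29 (SE), adjusted p = 1.45e-10).

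Markers of other cells reached folds as large as those of the endothelial genes. In brain, the synaptic gene Snap25 (13.39 ± 0.40), the astrocyte glutamate transporter Slc1a2 (12.06 ± 0.52), the myelin gene Mbp (9.74 ± 0.37), Ptgds (10.51 ± 0.62) and the choroid plexus gene Ttr (12.90 ± 0.34) exceeded heart without overlap. Slc1a2 stood at 7.82, 8.59, 11.45, 9.56 and 10.99 log2 CPM in brain replicates 1 to 5, so replicates 3 to 5 were higher than 1 and 2. Ptgds was highest in replicate 1 and lowest in replicate 5, at 16.18, 15.11, 14.90, 15.32 and 14.01. Mural markers were higher in brain in 8 of 15 tested genes and in heart in 1, against 36.7% and 33.6% of all genes. Vitronectin (Vtn) of brain pericytes stood at 11.15, 10.36, 10.53, 10.56 and 9.97 in brain and 1.47, 1.53, 1.64, 1.28 and 2.43 in heart (log2 fold change 8.84 ± 0.37 (SE), adjusted p = 4.83e-10), and smooth muscle myosin Myh11 at 2.64, 3.87, 6.95, 2.32 and 7.97 in brain and 1.72, 1.80, 1.79, 2.05 and 2.13 in heart, with the brain values spread over more than 5 log2 units (3.94 ± 0.96 (SE), adjusted p = 0.00268). The fibroblast proteoglycan decorin (Dcn) was not called (0.73 ± 0.34) but was called higher in brain with DESeq2 and with limma-voom. Choroid plexus genes were higher in brain in 11 of 12 tested, the exception being Aqp1, microglia and macrophage genes in 9 of 15 (2 in heart), epicardial and mesothelial genes in 6 of 8 (2 in heart) and genes of T cells, B cells and neutrophils in 4 of 5 (0 in heart), against the same shares of all genes. The last list has 12 genes, of which 7 had at most 3 reads in every heart library. It summed to 14.6 to 63.3 CPM in brain and 1.77 to 7.43 CPM in heart. Its members could thus pass the filter through brain alone, so the 4 of 5 is not a result about these cells. In heart, the sarcomere genes Myh6 (-12.73 ± 0.43) and Tnnt2 (-7.92 ± 0.38) were higher without overlap, and cardiac actin Actc1 was read 4590, 8354, 14869, 16126 and 31171 times in heart and 0, 1, 3, 0 and 1 times in brain, a ratio of 15700-fold (95% interval 6750 to 48500). Haemoglobin and other erythrocyte genes were called in 0 of 5 tested, against 70.2% of all genes, at summed levels of 7.65 to 52.9 CPM in brain and 3.68 to 88.9 CPM in heart.

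Housekeeping genes were called less often than all genes under TMM, and show how far the scaling decides their calls. Of 78 tested nuclear genes of the respiratory chain, 21 were higher in brain and 10 in heart under TMM, against 36.7% and 33.6% of all genes (74 and 2 under the endothelial scaling, against 88.3% and 3.93%), of 7 mitochondrially encoded genes 0 and 1 (6 and 0 under the endothelial scaling), and of 80 cytosolic ribosomal protein genes 31 and 15 (79 and 1 under the endothelial scaling). The mitochondrially encoded genes had a median log2 fold change of -0.49. Their sum spread widely, from 1299 to 20870 CPM among brain libraries and from 6957 to 14970 CPM among heart libraries. Ribosomal protein genes have many processed copies, and reads that align to several places were left uncounted, so these values are uncertain.

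The later time points offer other libraries, taken 6, 24, 48, 72 and 168 hr after 10 mg per kg LPS, in which no library is shared with 0 hr. They comprise 23 brain and 23 heart libraries with at least 3% of reads on genes, and levels were scaled over all 56 such libraries together. The genes called higher in brain at 0 hr had the higher mean in brain in 94.3%, 94.9%, 97%, 98.5% and 98.6% of cases at these times. For the genes called higher in heart the shares with the higher mean in heart were 88.7%, 94.7%, 95%, 93.3% and 95.7%. Over all tested genes, between 49.9% and 54.9% had the higher mean in brain. Of the 132 called genes named here, 124 kept their direction at all 5 times, and for 83 of them the groups did not overlap at any of the 5. Many of these genes were named for a large change at 0 hr. No matching share over all tested genes is at hand, so both counts cover the named genes only. The difference in Cd36 ran from -13.01 to -10.52 log2 units (brain minus heart), that in Fabp4 from -11.37 to -9.52, that in Lef1 from 8.35 to 9.94 and that in Kdr from -4.61 to -3.47. Slc2a1 had its narrowest gap at 24 hr (2.75), when the heart mean was 7.64 log2 CPM against 4.49 at 0 hr. The 8 called genes that did not keep their direction at every time were Angpt1, Cdh2, Cldn5, Cx3cl1, Flot1, Rpl22, Slc39a10 and Slc7a1. For Cldn5 the brain mean at 6 hr was 8.60 and the heart mean 8.72 log2 CPM. These shares describe the libraries and were not tested.

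**Figure D5:**
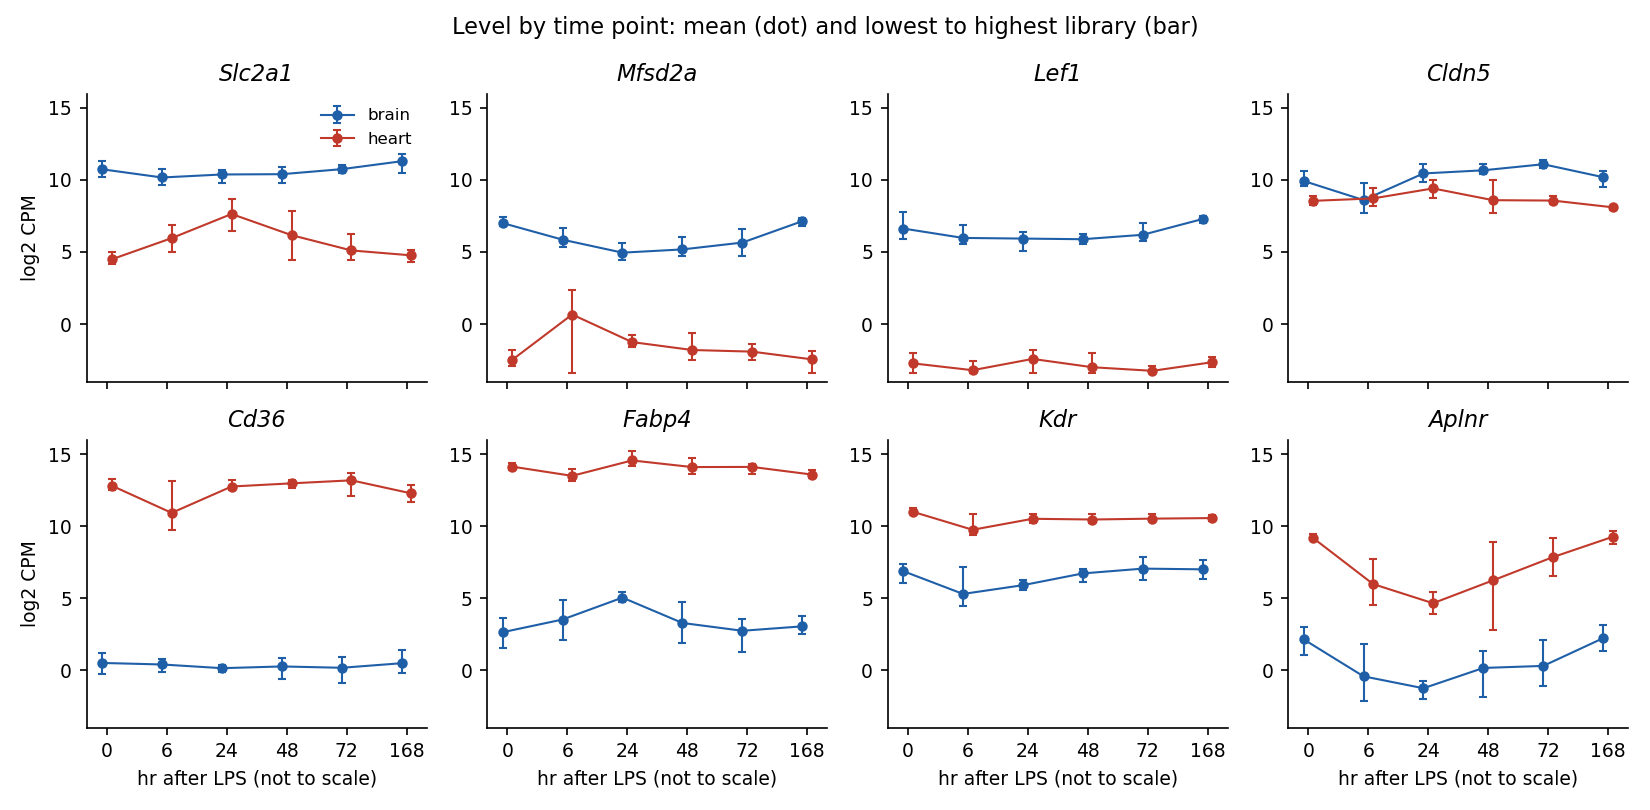
Level of 8 genes (vertical axis, log2 CPM) in brain (blue) and heart (red) at 0 hr and at 5 times after LPS (horizontal axis, hr, not to scale), with the mean as a dot and a bar from the lowest to the highest library. The tissues stay apart at every time for Slc2a1, Mfsd2a, Lef1, Cd36, Fabp4, Kdr and Aplnr, and overlap for Cldn5 at 6 and 24 hr.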

How the data were processed

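The data are RNA from endothelial ribosomes of whole brain and heart, sequenced on the HiSeq4000. Per the labels and the study's methods, reads were aligned with STAR 2.4.2 to mm10 and counted per gene with HTSeq 0.6.1; the authors deposited 1 table of raw counts per sequencing run. The annotation release and the strand setting of the counting are not given in the sources used here, and 33 of the 149 genes named in the text have exons that overlap a gene on the other strand and 3 a gene on the same strand (Acsl3, Cd74 and Smad5). Results for a few genes are not reported here. Runs of a library were summed, and replicate 6 of each tissue was left out because 2.54% (brain) and 2.28% (heart) of its reads were on genes. Rows that name no gene (no feature, ambiguous, not unique) were kept out of library sizes and made up 31.3% to 42.6% of the reads. Symbols and coordinates came from GENCODE M21 (GRCm38, mm10), which matched 52403 of 52550 gene IDs, and promoter windows from RefSeq GRCm38.p6.

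Genes that passed filterByExpr (16493) were tested with edgeR 4.0.16 in R 4.3.3 (glmQLFit and glmQLFTest, two-sided, TMM, terms for library series and tissue), with Benjamini-Hochberg adjustment over all genes tested and a threshold of 0.05. Every adjusted p in the text comes from this quasi-likelihood test. The SE was taken from the fold change and its F statistic (absolute log2 value over the root of F). Levels were computed as log2 CPM after adding a prior count of 2, which compresses levels near 0, and for genes at 0 to 3 reads in every library of a tissue a ratio of counts with an exact 95% interval is given instead where named. Intervals and the floor of 3 counts cover counting error only. List counts are over members that passed the filter. The code was tested on simulated data. RLE, a scaling on 25 pan-endothelial genes, no filter, DESeq2 1.42.0, limma-voom (3.58.1), no series term, a replicate block, all 0 hr libraries, each series alone, each library left out and a minimum log2 fold change of 1 were run as alternatives.

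Named genes are a preset list of anchors, the 8 largest non-overlapping changes in each direction among called genes at a mean of 5 log2 CPM or more, up to 3 called genes per list and direction at 3 log2 CPM or more, all fatty acid-binding proteins and up to 3 uncalled genes per list with the smallest change; 14 further genes are marked as chosen after their values were seen. The members, lists and tests were chosen with earlier results of these data known.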

Additional observations from a re-analysis of the deposited data

Results flagged for a closer look

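Among 289 groups of 5 libraries (the named genes' levels in each tissue), 10 had a library farther from the others than Dixon's 95% criterion allows (a gap over 0.71 of the group's range); chance flags about 1 in 20 groups. In heart, replicate 2 was highest for Aplnr at 9.54 log2 CPM (nearest library 9.26), replicate 3 was highest for Flot1 at 6.83 (6.32), and replicate 4 was highest for Acsl3 at 4.05 (3.73) and for Smad5 at 8.10 (7.66). Heart replicate 3 was lowest for Ddah1 at 3.66 (4.29) and, with no read, for Ndp at -3.21 (-1.64). In brain, replicate 4 was highest for Gpi1 at 7.89 (7.77) and lowest for Abca1 at 5.07 (5.61), replicate 3 was highest for Flot2 at 6.29 (5.96), and replicate 1 was lowest for Ddah1 at 6.00 (6.35).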

How the results depend on the processing

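Scaling on the pan-endothelial genes moved the counts most, to 14564 genes higher in brain and 648 higher in heart. Under it the log2 fold changes of Abca1 (1.27), Abcg1 (1.05), Acadm (0.55), Acads (0.28), Etfdh (0.070), Flt1 (1.44), Gja4 (0.97), Hoxb3 (0.17), Lrp5 (0.13), Nfatc1 (0.50), Plin2 (0.054), Rpl22 (1.79), Slc10a7 (0.037) and Tek (0.62) turned positive, and 9 more of the 132 called genes named in the text lost the call. Requiring a log2 fold change of at least 1 left 4625 genes higher in brain and 3150 higher in heart. Leaving out each library in turn gave 5818 to 6535 genes higher in brain and 5131 to 5641 higher in heart. The other alternatives (DESeq2, RLE, limma-voom, no series term, no filter, all 0 hr libraries, each series alone) gave 4611 to 8667 genes higher in brain and 3828 to 5634 higher in heart. None of these settings besides the endothelial scaling reversed a called gene named in the text. Besides the minimum fold change, Cdh2 lost the call within series 1 and without brain replicate 2, Flt1 within series 1, Procr within series 2, and Rpl22 within series 1 and with all 0 hr libraries. Of the 17 named genes without a call, 17 gained one for brain under the endothelial scaling and 13 gained one under at least 1 other alternative, among them Dcn, Nr2f2 and Marveld2.

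Brain and heart libraries share replicate numbers. The deviations of same-numbered libraries from their tissue means correlated at r = 0.13, -0.01, 0.05, -0.07 and 0.18 for replicates 1 to 5. From the means of each tissue within its series, the values were 0.104, 0.104, 0.161, 0.006 and 0.065. Series 1 holds 2 libraries per tissue, so the values of replicates 1 and 2 are the same by construction. On these deviations, brain replicates 1, 3 and 5 correlated best with their own number among all 5 heart libraries. Brain replicates 2 and 4 correlated best with heart replicates 4 and 2, which belong to the other series. The labels do not say whether same-numbered libraries share a mouse, and the numbers were not taken as pairs. With the number as a replicate block, 5713 genes were higher in brain and 5104 in heart.

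A floor of 3 reads corresponds to 0.118 to 0.343 CPM in a brain library and 0.113 to 0.306 CPM in a heart library, which limits folds for genes near 0 in either tissue. The fit carries no term for the share of other cells.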

Other observations

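Replicate 6 of brain and heart, which entered no comparison, had 582145 and 630497 counts on genes, and 66.6% and 65.7% of its reads lay on no annotated feature.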
